A study of Homo sapiens with 2 samples.

Results

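Keratin genes encode the intermediate filament proteins of epithelial cells, and here they were the protein-coding genes whose symbol is KRT followed by a number and an optional letter, without keratin-associated protein genes such as the KRTAP family. There were 55 of them among 20163 protein-coding genes of the GENCODE release 44 annotation on GRCh37 (hg19). Each was described by its promoter and by its window, the gene body with 10 kb on each side. The data were 2 peak lists from Flag CUT&Tag, in which an antibody directs a transposase to a tagged protein and cuts out the DNA around it. TRPS1-WT and TRPS1-MT cells were HCT116 cells, an established human colorectal carcinoma line grown in IMDM, that stably overexpressed 3×Flag-tagged TRPS1 from a lentivirus under puromycin selection, either as wild type or with the R544Q substitution. Each condition was 1 library, so every difference below is between 2 libraries and has no replicate check, and no p-value was computed. TRPS1 is a zinc finger transcription factor with a GATA-type DNA-binding finger that mostly acts as a repressor, and mutations of its gene cause trichorhinophalangeal syndrome, in which scalp hair is sparse.

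Keratins work in pairs, an acidic type I chain with a basic type II chain, and the pair marks the kind of epithelium. KRT8 with KRT18, together with KRT19 and KRT20, are the keratins of simple epithelium such as that of the colon, KRT5 with KRT14 belong to the basal layer of stratified epithelium and KRT1 with KRT10 to its upper layers, while the hair keratins build the hair shaft and another set builds the inner root sheath around it. The genes lie in 2 clusters. Of the 55 keratins, 27 were on chromosome 12 (the 26 type II genes and KRT18) and 28 on chromosome 17 (type I genes and the keratin-like KRT222). Grouped by where their proteins are found, 5 were simple epithelial, 7 other epithelial, 17 stratified epithelial, 9 of the inner root sheath and companion layer, and 17 hair keratins. The lists hold binding peaks and no expression values, so the epithelial label of the line could not be checked against keratin levels.

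TRPS1-WT cells had 173409 peaks and TRPS1-MT cells 325715. The height of a peak is given as summit tags, the number of sequenced fragments piled up at its highest base, which was recovered from the fold and p-value of the deposited lists on the assumption that they follow the MACS2 model. The median over the list was 14 tags in TRPS1-WT and 17 tags in TRPS1-MT, and no peak had fewer than 9 or 10 tags respectively. The libraries were not scaled to each other, so tags are compared below against the ratio shared by all peaks. Intervals are at the 95% level and cover counting error only.

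The sequences around 6 shared peaks are shown first, because these peaks are the strongest or nearest ones at the 5 simple epithelial keratins and, for KRT31, the hair keratin peak with 2 AP-1 matches, which was chosen after its values were seen. Each runs 5′ to 3′ on the plus strand of GRCh37 over 201 bp centred on the summit, in lower case. Capitals mark AP-1 matches (TGACTCA or TGAGTCA) and TEAD matches (GGAATG or CATTCC).
KRT8 internal promoter peak, TRPS1-WT summit, chr12:53319077-53319277: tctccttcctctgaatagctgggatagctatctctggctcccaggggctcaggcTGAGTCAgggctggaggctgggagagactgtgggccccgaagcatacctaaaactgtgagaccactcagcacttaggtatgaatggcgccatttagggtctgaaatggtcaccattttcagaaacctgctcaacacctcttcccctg
KRT18 upstream peak, TRPS1-WT summit, chr12:53339506-53339706: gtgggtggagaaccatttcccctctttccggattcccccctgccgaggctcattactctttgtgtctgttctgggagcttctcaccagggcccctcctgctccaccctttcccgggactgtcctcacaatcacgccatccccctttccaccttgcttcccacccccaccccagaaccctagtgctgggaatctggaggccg
KRT19 internal promoter peak, TRPS1-WT summit, chr17:39682042-39682242: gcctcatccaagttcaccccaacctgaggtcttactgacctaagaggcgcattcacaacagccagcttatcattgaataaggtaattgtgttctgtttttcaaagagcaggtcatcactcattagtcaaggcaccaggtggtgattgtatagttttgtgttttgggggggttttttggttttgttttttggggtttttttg
KRT20 intron peak, TRPS1-WT summit, chr17:39039450-39039650: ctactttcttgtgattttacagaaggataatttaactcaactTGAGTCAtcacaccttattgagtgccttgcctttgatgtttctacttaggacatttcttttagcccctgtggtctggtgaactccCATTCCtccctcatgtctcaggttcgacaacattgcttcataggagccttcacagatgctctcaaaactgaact
KRT7 upstream peak, TRPS1-WT summit, chr12:52623942-52624142: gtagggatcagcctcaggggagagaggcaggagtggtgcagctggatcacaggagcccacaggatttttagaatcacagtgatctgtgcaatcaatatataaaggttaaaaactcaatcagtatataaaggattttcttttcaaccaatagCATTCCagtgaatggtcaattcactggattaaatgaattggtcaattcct
KRT31 upstream peak, TRPS1-WT summit, chr17:39560267-39560467: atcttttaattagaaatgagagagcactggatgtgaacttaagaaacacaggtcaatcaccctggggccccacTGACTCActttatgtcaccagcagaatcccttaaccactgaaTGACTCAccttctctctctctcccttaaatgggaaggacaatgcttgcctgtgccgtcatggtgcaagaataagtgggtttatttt
The KRT8 window held 1 AP-1 match, the KRT20 window 1 AP-1 and 1 TEAD match, the KRT7 window 1 TEAD match and the KRT31 window 2 AP-1 matches. The KRT18 and KRT19 windows had none of either. These are matches of letters and do not show which factor was bound.

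Keratin promoters carried a peak less often than promoters at large. A promoter peak was one whose midpoint lay from 2 kb before to 1 kb after any annotated transcription start site (TSS) of the gene. In TRPS1-WT, 21 of 55 keratins (38.2%, Wilson interval 26.5 to 51.4%) had one, against 67.4% of all protein-coding genes. In TRPS1-MT the count was 23 of 55 (41.8%, 29.7 to 55.0%), against 76.4% of all genes. Both lists held a promoter peak at 14 keratins, where 62.6% of all genes had one in both. Of the 55 keratins, 7 had a promoter peak in the TRPS1-WT list only, 9 in the TRPS1-MT list only and 25 in neither. The corresponding shares of all protein-coding genes were 4.88%, 13.8% and 18.7%. The peaks of the 2 lists overlapped by at least 1 bp at 9 of the 14, namely KRT80, KRT7, KRT5, KRT72, KRT77, KRT8, KRT23, KRT15 and KRT19. The same share over all genes was not computed, so this count only names the genes.

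Keratins have few annotated TSSs, and the number of TSSs moved with the share. The median was 2 per keratin and 5 per protein-coding gene. Among the 22 keratins with 1 TSS, 4 (18.2%) had a promoter peak in TRPS1-WT and 5 (22.7%) in TRPS1-MT, against 33.0% and 42.3% of all genes with 1 TSS. Among the 33 with more TSSs the counts were 17 (51.5%) and 18 (54.5%), against 74.1% and 82.9%. The lower share was present within both groups of genes, but the group with more TSSs was not matched for their number. Whether TSS number accounts for the lower share was not tested. With the canonical TSS alone, 12 keratins (21.8%) had a promoter peak in TRPS1-WT and 19 (34.5%) in TRPS1-MT, against 55.4% and 63.6% of all genes, and only KRT80, KRT5, KRT77, KRT8 and KRT23 had one in both.

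The windows gave another picture. A peak lay in the window of 50 of 55 keratins in TRPS1-WT, where 91.9% of all genes had one, and of 54 in TRPS1-MT, where 95% had one. KRT85, KRT6C, KRT222, KRT24 and KRT25 had no window peak in TRPS1-WT, and KRT16 had none in TRPS1-MT. The 1233 kb of keratin windows held 135 distinct TRPS1-WT peaks and 177 TRPS1-MT peaks, which is 11.0 and 14.4 peaks per 100 kb. In the windows of all protein-coding genes the densities were 7.22 and 13.1 per 100 kb. The median height was 23 tags in TRPS1-WT and 24 tags in TRPS1-MT, above the medians of the lists, and 25 peaks (18.5%) in TRPS1-WT and 29 (16.4%) in TRPS1-MT had more than 100 tags, against 4.90% and 3.62% of the lists. A promoter peak was therefore found at a smaller share of keratins than of all genes. The keratin windows, promoters included, held peaks at least as densely as the windows of all protein-coding genes. Peak density in promoters alone was not computed.

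By place, 30 of the 135 TRPS1-WT peaks were in keratin promoters, 30 in keratin introns, 5 in keratin exons, 44 between genes, 13 in promoters of other genes and 13 in other gene bodies. In TRPS1-MT the numbers were 43, 32, 9, 60, 18 and 15 of 177. The tallest peaks were outside keratin promoters in both lists: the highest keratin promoter peak had 525 and 964 tags, while the highest peak between genes or in other gene bodies reached 1568 tags in TRPS1-WT and 2905 tags in TRPS1-MT.

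**Figure D1:**
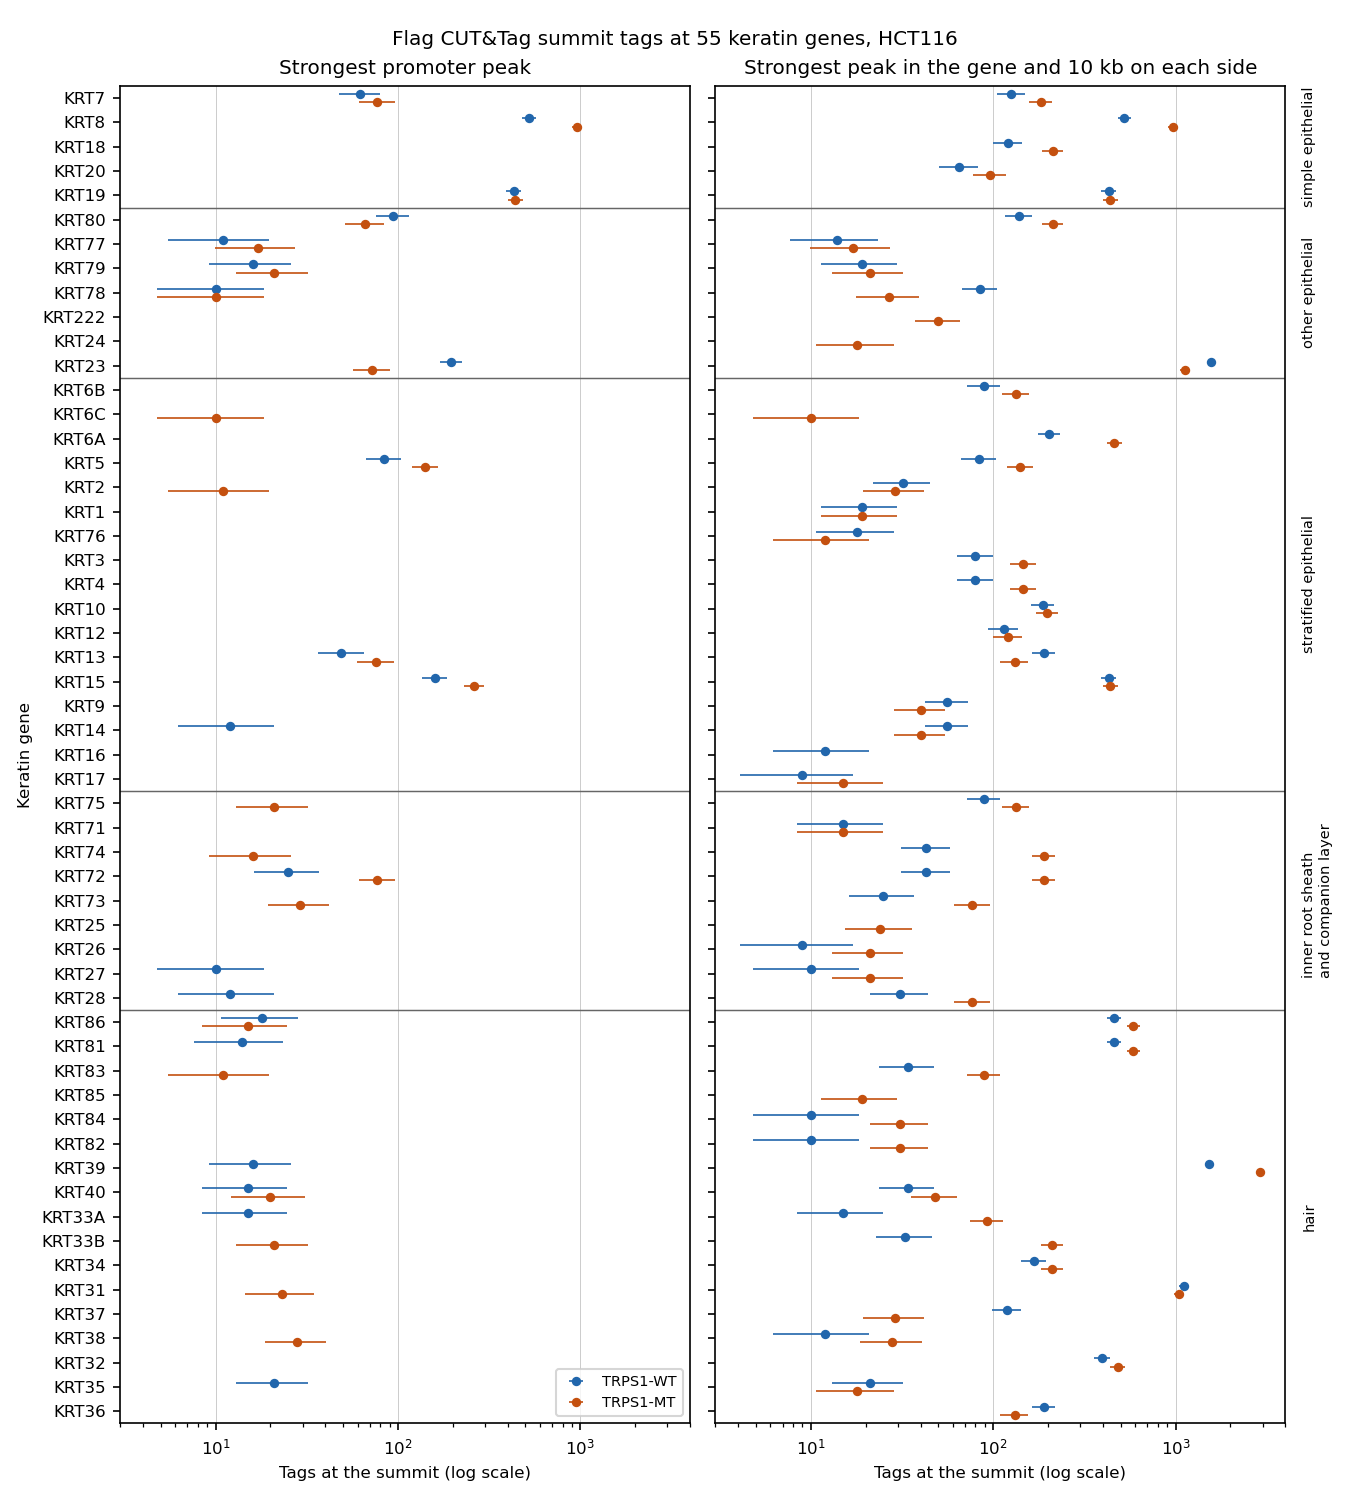
Summit tags (log axis) of the strongest promoter peak and of the strongest peak in the gene body with 10 kb on each side, for the 55 keratin genes by class, in TRPS1-WT and TRPS1-MT. Points are single libraries and bars exact 95% Poisson intervals; a peak in 2 neighbouring windows is drawn for both genes. Hair keratin promoters stayed at or below 28 tags in both lists, while their windows, which contain the promoters, reached 1531 tags in TRPS1-WT and 2905 tags in TRPS1-MT.

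Among the simple epithelial keratins, KRT8, KRT19 and KRT7 had promoter peaks in both lists, and KRT18 and KRT20 had none in either. The strongest of these peaks counted as promoter peaks through alternative TSSs inside the genes and not through the canonical ones.

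KRT8, the type II chain of simple epithelium, had the strongest promoter peak of any keratin. It lay at 53318888 to 53319852 of chromosome 12 with 525 tags (481 to 572) in TRPS1-WT and at 53318776 to 53319847 with 964 tags (904 to 1027) in TRPS1-MT. It counted as a promoter peak through a TSS of a protein-coding KRT8 transcript within the annotated gene. Its midpoints were 883 and 941 bp after that TSS, which neither peak contained. The summits were at −20317 and −20365 bp from the canonical TSS (negative values are upstream). The ratio of TRPS1-MT to TRPS1-WT tags was 1.84 (1.65 to 2.05), and a second pair beside it had 171 and 228 tags. Upstream of the canonical TSS a weaker pair had 51 and 88 tags. At that TSS itself, TRPS1-WT alone had a peak, at 53298879 to 53299140 with 63 tags and its summit 116 bp away. The nearest TRPS1-MT summit was that of 88 tags, 1528 bp away, and at its local background a summit of fewer than 34 tags would not have been listed.

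KRT18, the type I partner of KRT8, starts beside it in the opposite direction. Its nearest peak had 121 tags in TRPS1-WT (53339411 to 53340232) and 212 tags in TRPS1-MT (53339033 to 53340312), a ratio of 1.75 (1.39 to 2.21). It lay in a KRT8 intron, with summits at −3296 and −3030 bp from the KRT18 TSS, outside the promoter as defined here. At that local background, summits under 30 tags in TRPS1-WT and 52 tags in TRPS1-MT would not have been listed. This pair lay in the windows of both genes, while the pair of 525 and 964 tags lay in that of KRT8 alone. Against a median of 1.33 over all pairs of the lists, the ratios in the KRT8 window ran from 0.979 (47 and 46 tags, in a KRT8 promoter) to 1.84, and all were within 2 times of that median.

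KRT19, the smallest keratin, had its strongest peak inside the gene at 39681610 to 39682313 of chromosome 17, with 431 tags (391 to 474) in TRPS1-WT. The TRPS1-MT peak at 39681855 to 39682336 had 439 tags (399 to 482), a ratio of 1.02 (0.890 to 1.17). A neighbouring pair had 174 and 380 tags, a ratio of 2.18 (1.82 to 2.63), so that adjacent peaks of the gene had different ratios. TRPS1-MT also had a peak of 210 tags at the canonical TSS (39684527 to 39684885). The nearest TRPS1-WT summit was 1981 bp away, and fewer than 92 tags would not have been listed at its local background, which was high around this gene.

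KRT20, a keratin of differentiated intestinal epithelium, had 1 shared peak, in an intron. It had 65 tags (50.2 to 82.8) in TRPS1-WT at 39039338 to 39039942 and 96 tags (77.8 to 117) in TRPS1-MT at 39039232 to 39039693, a ratio of 1.48 (1.07 to 2.06), with summits 1944 and 2037 bp after the TSS. KRT7, a type II keratin of glandular and ductal epithelium, had promoter peaks of 62 and 77 tags at alternative TSSs inside the gene. These TSSs were of transcripts without a defined coding sequence. The summits were 10330 and 10351 bp after the canonical TSS. The strongest window peak of KRT7, of 126 and 183 tags (ratio 1.45, 1.15 to 1.84), was in the promoter of the pseudogene METTL7AP1, with summits at −2985 and −2580 bp. For these genes the order of tags in either list was KRT8, KRT19, then KRT7 or KRT18 with overlapping intervals, then KRT20. The order by fold, the ratio to the local background, was different. The same peaks of KRT20 had folds of 16.3 in TRPS1-WT and 19.4 in TRPS1-MT, and those of KRT8 14.0 and 12.2. KRT7 had 12.3 and 9.89, KRT18 9.94 and 7.80, and KRT19 the lowest, 7.68 and 5.13.

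**Figure D2:**
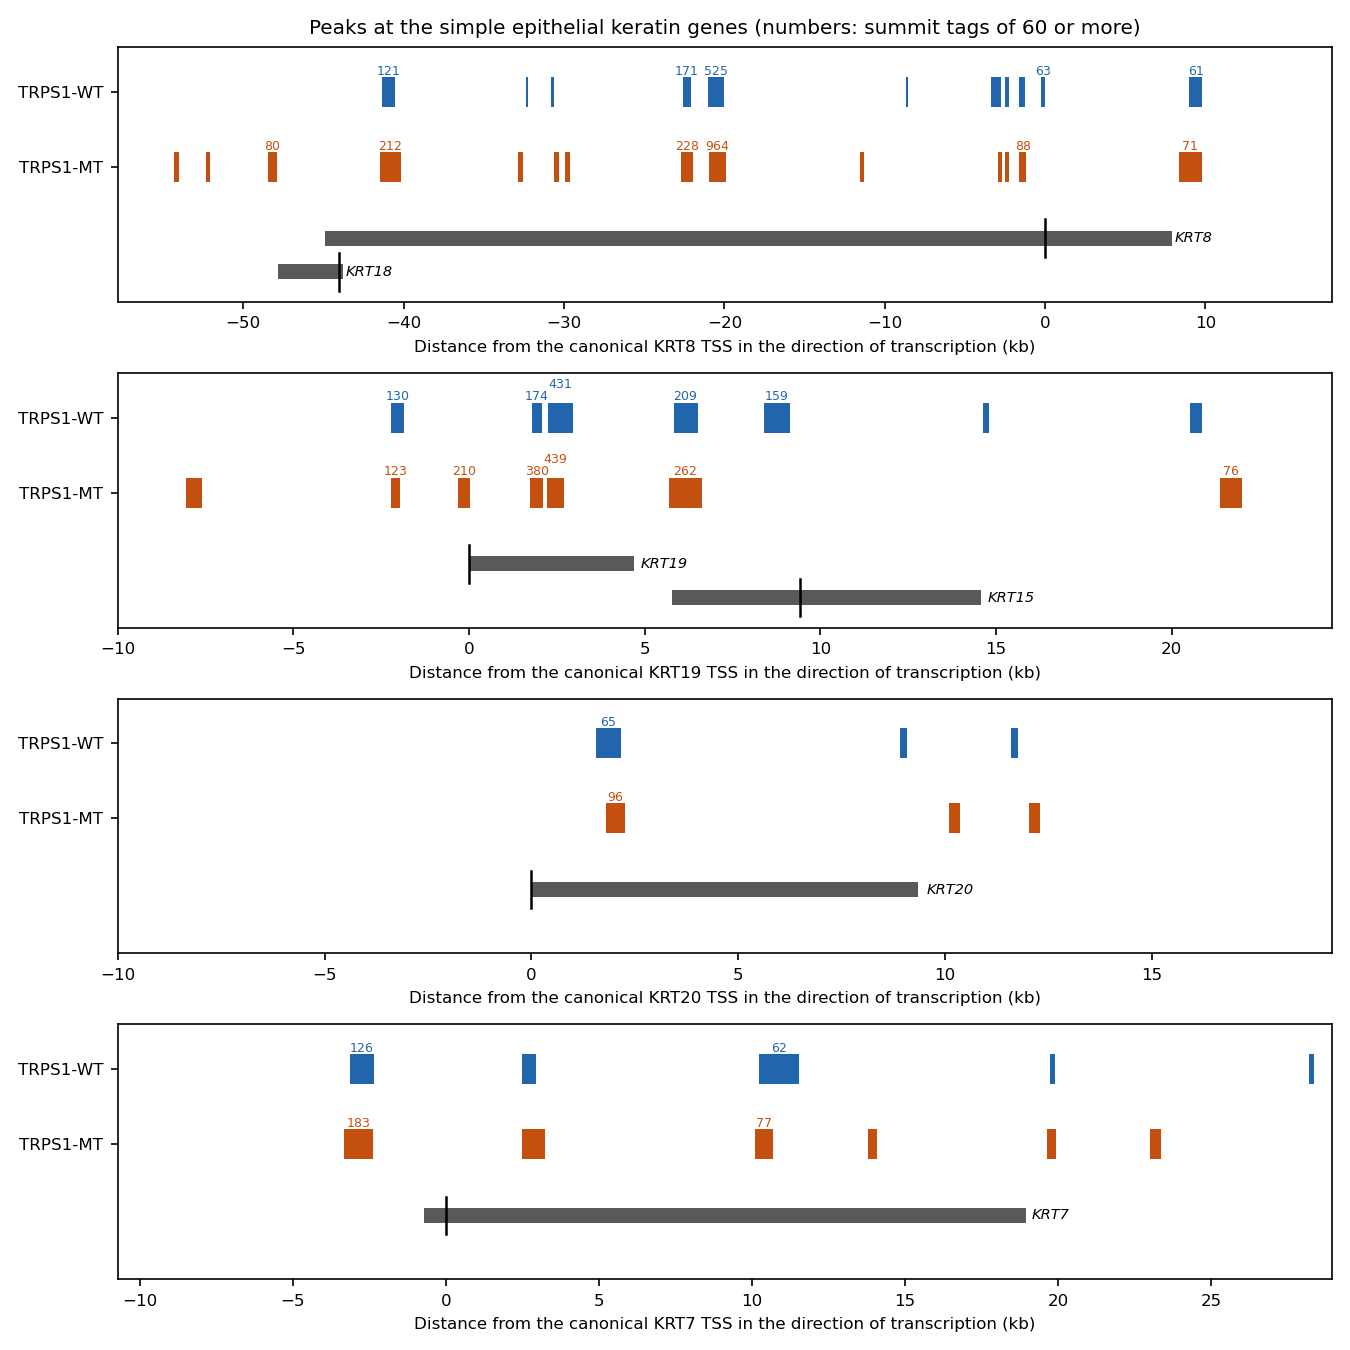
Peaks at KRT8 with KRT18, at KRT19 with KRT15, at KRT20 and at KRT7, drawn to scale by distance (kb) from the canonical TSS in the direction of transcription. Blue boxes are TRPS1-WT and orange boxes TRPS1-MT peaks, grey bars are genes, black ticks canonical TSSs, and numbers are summit tags of at least 60. The KRT8 peaks of 525 and 964 tags lie far from the canonical TSS, and only TRPS1-MT has a peak (210 tags) at the KRT19 TSS.

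Of the other epithelial keratins, KRT80, KRT77, KRT79, KRT78 and KRT23 had a promoter peak in both lists, and KRT24 and KRT222 had none. KRT23, a type I keratin of epithelial cells, had a taller promoter peak in TRPS1-WT. The peak at 39092911 to 39093826 had 196 tags (170 to 225) in TRPS1-WT and 72 tags (56.3 to 90.7) in TRPS1-MT at 39092985 to 39093630, a ratio of 0.367 (0.276 to 0.484). A much taller peak between genes, 22236 bp after the canonical KRT23 TSS, had 1568 and 1127 tags. KRT80, a type II keratin of differentiating epithelium, had 94 tags at −140 bp in TRPS1-WT and 66 tags at 774 bp in TRPS1-MT as its strongest promoter peaks. Both lists had peaks at both places, since TRPS1-WT also had 44 tags at 52584684 to 52585057, overlapping the TRPS1-MT peak of 66 tags, and TRPS1-MT also had 58 tags at 52585757 to 52586077, within 75 bp of the TSS, and 64 tags beside it. KRT77, KRT79 and KRT78 stayed between 10 and 21 promoter tags in both lists.

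Stratified keratins were sparse at their promoters: 4 of 17 had a promoter peak in TRPS1-WT, 5 in TRPS1-MT and 3 in both, and 11 had none. The 3 were KRT5, KRT13 and KRT15. KRT5, the type II chain of basal cells, had 84 tags (67.0 to 104) in TRPS1-WT and 141 tags (119 to 166) in TRPS1-MT at −1090 and −1005 bp, a ratio of 1.68 (1.27 to 2.23). KRT14, its type I partner, had 12 tags in TRPS1-WT at an alternative TSS and no promoter peak in TRPS1-MT. KRT6C and KRT2 had 10 and 11 promoter tags in TRPS1-MT only.

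KRT15, a basal and hair bulge keratin next to KRT19, had 209 and 262 tags in the pair of promoter peaks that overlapped, and 159 tags in a TRPS1-WT peak that met none in TRPS1-MT. The promoter peaks of KRT13, a type I chain of mucosal epithelium, were at different places, with 49 tags in TRPS1-WT and 76 tags in TRPS1-MT. KRT1, KRT10, KRT9, KRT12, KRT3, KRT4, KRT76, KRT16, KRT17, KRT6A and KRT6B had no promoter peak in either list. Some of these had tall window peaks, among them KRT6A, a keratin of activated epidermis, with 203 and 462 tags at −3539 and −3552 bp (ratio 2.28, 1.93 to 2.70), and KRT10, with 187 and 198 tags in the promoter of its antisense gene KRT10-AS1.

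The inner root sheath and companion layer keratins had their tallest promoter peaks at KRT72 in TRPS1-WT and in TRPS1-MT. The strongest promoter peak per gene ranged from 10 to 25 tags in 3 of 9 genes in TRPS1-WT. In TRPS1-MT it ranged from 16 to 77 tags in 4 of 9 genes. KRT72 was the only gene of the class with a promoter peak in both, with 25 tags (16.2 to 36.9) in TRPS1-WT and 77 tags (60.8 to 96.2) in TRPS1-MT, a ratio of 3.08 (1.94 to 5.05). These counted as promoter peaks only through a TSS other than the canonical one. Their midpoints were at −1980 and −2000 bp from it, at the limit of the definition. TRPS1-MT also had a KRT72 peak of 18 tags at −367 bp from the canonical TSS. KRT27 and KRT28 had 10 and 12 promoter tags in TRPS1-WT only, and KRT75, KRT74 and KRT73 had 21, 16 and 29 tags at their strongest in TRPS1-MT only. No window of the class held a peak over 100 tags in TRPS1-WT, and 3 windows did in TRPS1-MT.

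Hair keratins had promoter peaks at 6 of 17 genes in each list. These peaks had 14 to 21 tags in TRPS1-WT and 11 to 28 tags in TRPS1-MT. KRT86 and KRT40 had a promoter peak in both lists, at places that did not overlap. KRT81, KRT39, KRT33A and KRT35 had one in TRPS1-WT only, and KRT83, KRT33B, KRT31 and KRT38 in TRPS1-MT only. Over the whole lists, 24.3% and 11.2% of the peaks with a −log10 p under 50 were shared. All 7 genes with a promoter peak in TRPS1-WT only had 10 to 21 tags, and all 9 in TRPS1-MT only had 10 to 29 tags. These heights lay on both sides of the list medians of 14 and 17 tags.

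The windows of hair keratins held far taller peaks than their promoters. A window contains the promoter and spans more DNA, so its tallest peak could not be the lower one. The strongest window peak passed 100 tags at 8 of 17 hair keratins in each list, 7 of them in both. It did so at 25.9% of all protein-coding genes in TRPS1-WT and at 35.0% in TRPS1-MT. Among all 55 keratins the counts were 19 and 26, among the simple epithelial ones 4 of 5 in each list, and among the stratified ones 5 and 9 of 17, so tall window peaks were not particular to the hair class. KRT39 had, within its window and inside a long noncoding RNA gene (ENSG00000234477), a peak of 1338 tags (39107260 to 39108016) in TRPS1-WT and 2905 tags in TRPS1-MT, a ratio of 2.17 (2.03 to 2.32). Another at 39112810 to 39113720 had 1531 and 1518 tags, a ratio of 0.992 (0.923 to 1.07).

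KRT31, a keratin of the hair cortex, had 1110 tags (1046 to 1177) in TRPS1-WT and 1040 tags (978 to 1105) in TRPS1-MT at −6507 and −6590 bp, in the noncoding RNA gene ENSG00000234859. KRT32, a hair cuticle keratin, had 397 and 482 tags in its own intron (ratio 1.21, 1.06 to 1.39), and KRT34 had 167 and 211 tags in an intron. KRT86 and KRT81 shared a pair of 460 and 572 tags in a KRT86 intron and another of 302 and 587 tags. KRT85, KRT84 and KRT82 by contrast had no window peak over 31 tags in either list, so the hair genes differed widely among themselves. Of the 2 hair types, the tallest peaks were at type I genes on chromosome 17.

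**Figure D3:**
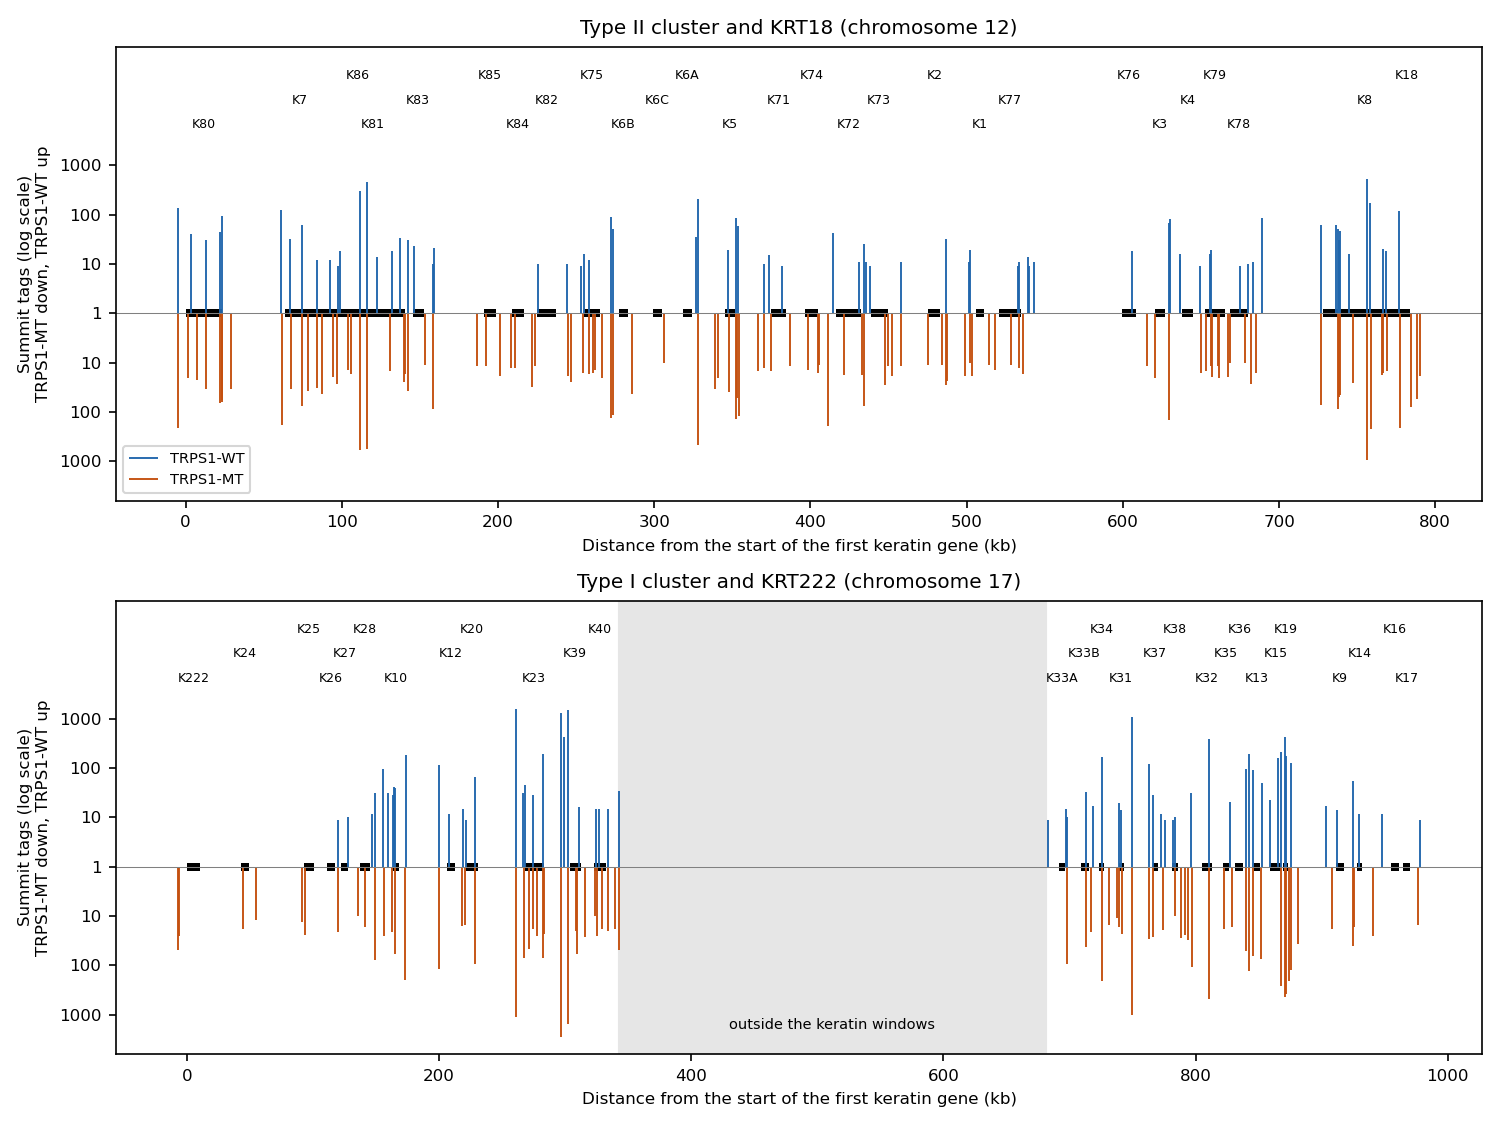
Summit tags (log axis) of the peaks in keratin windows along the clusters on chromosomes 12 and 17, by distance (kb) from the first keratin gene. TRPS1-WT lines point up and TRPS1-MT lines down, black bars are genes, K stands for KRT in their names, and the grey stretch lies outside the windows. The longest lines, up to 1568 tags in TRPS1-WT and 2905 tags in TRPS1-MT, are on chromosome 17, and the KRT8 peak of 525 and 964 tags is the highest on chromosome 12.

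The lists overlapped more often in keratin windows than over the whole genome. Of the 135 TRPS1-WT peaks, 67 (49.6%, 41.3 to 58.0%) overlapped a TRPS1-MT peak, against 30.4% of the whole list. Of the 177 TRPS1-MT peaks, 67 (37.9%, 31.0 to 45.2%) overlapped a TRPS1-WT peak, against 15.8%. At a −log10 p of at least 50, 28 of 32 and 30 of 33 peaks were shared, which is 87.5% and 90.9%, against 96.8% and 91.7% in the whole lists. Among weaker peaks 39 of 103 (37.9%) and 37 of 144 (25.7%) were shared, against 24.3% and 11.2%. The keratin windows were thus above the lists in their weaker peaks and not in their strongest ones, and they also held more strong peaks, 23.7% and 18.6% of all against 8.36% and 5.72%.

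Each shared TRPS1-WT peak was paired with its strongest overlapping TRPS1-MT peak. The ratio of TRPS1-MT tags to TRPS1-WT tags had a median of 1.41 over the 67 pairs (quartiles 1.04 to 1.87), and of 1.33 over the 52625 pairs of the whole lists, so the keratin median was 1.06 times the general one. The median was 1.50 for the 37 pairs on chromosome 12 and 1.23 for the 30 pairs on chromosome 17. A ratio over 2 times the general median was counted as higher in TRPS1-MT and one under 0.5 times it as lower. There were 6 higher pairs (8.96%, against 11.0% of all pairs) and 4 lower pairs (5.97%, against 9.97%), so neither share was above that of the lists.

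The higher pairs were 2 upstream of KRT83 (10 and 21 tags in TRPS1-WT, both against the same TRPS1-MT peak of 89 tags), and those at KRT33A, KRT32, KRT72 and an intron in the windows of KRT7 and KRT86. The KRT33A pair, upstream of this hair keratin, had the largest ratio, from 10 tags in TRPS1-WT to 93 tags in TRPS1-MT (9.30, 4.84 to 20.0). The KRT32 pair had 31 and 106 tags (3.42, 2.27 to 5.28), and the intron pair 12 and 33 tags (2.75, 1.38 to 5.85).

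The lower pairs were at KRT37 and KRT23, between KRT36 and KRT13, and at KRT1. The KRT37 pair, near a hair keratin, had 119 and 29 tags (0.244, 0.157 to 0.368), and the pair between KRT36 and KRT13 had 98 and 51 tags (0.520, 0.363 to 0.737). KRT1 had 19 and 10 tags (0.526, 0.219 to 1.19), an interval that includes 1 but lies below the median of all pairs, 1.33. The 10 tags are the lowest height listed in TRPS1-MT. Apart from KRT23 and KRT72, the called pairs were outside keratin promoters.

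**Figure D4:**
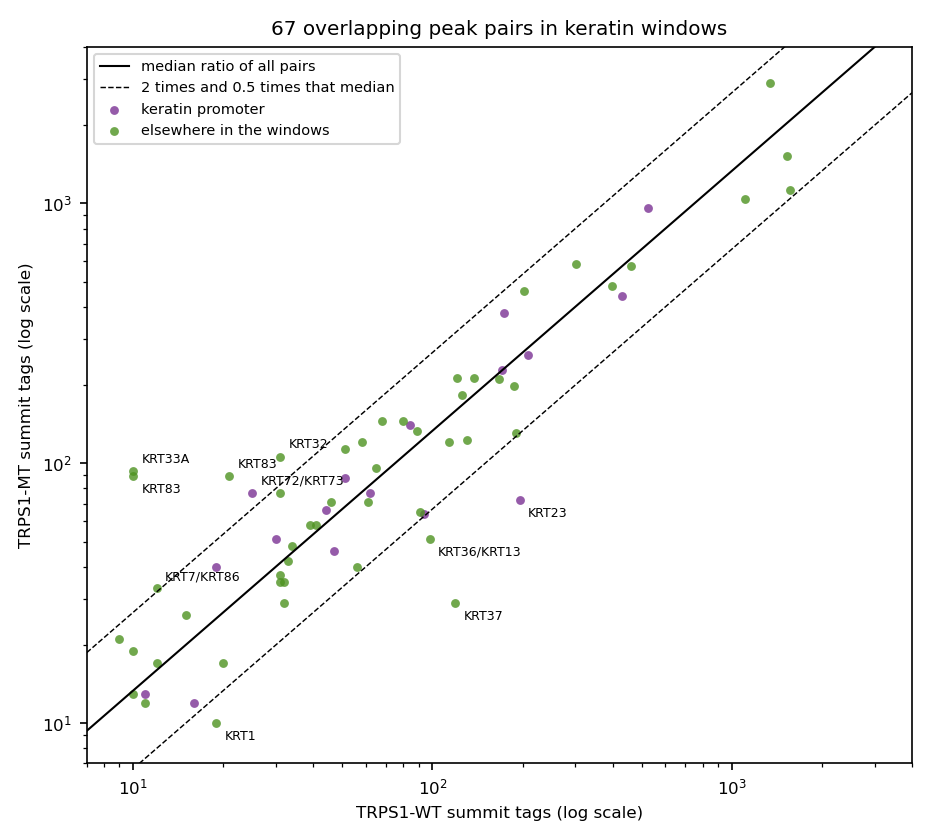
Summit tags of the 67 overlapping pairs in keratin windows, TRPS1-WT against TRPS1-MT (log axes), with purple points in keratin promoters and green points elsewhere. The solid line is the median ratio of all pairs, 1.33, and the dashed lines 2 and 0.5 times it; the 10 labelled pairs lie beyond the dashed lines.

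A few tall peaks were in 1 list alone. In TRPS1-WT, a peak of 433 tags (39110187 to 39110503 of chromosome 17) stood between the KRT39 peaks over a local background of 123 tags, and others had 98 tags (38966450 to 38967061, in the window of KRT10) and 85 tags (53251352 to 53251750, upstream of KRT78). In TRPS1-MT, a peak of 190 tags (52973871 to 52974571 of chromosome 12) lay between KRT74 and KRT72. The 201 bp at the summits of the strongest such peak away from promoters in each list are given. Neither holds an AP-1 or TEAD match, which was also so for the shared KRT18 and KRT19 windows above. They were chosen with this known, and single windows show no difference between shared and unshared peaks.
KRT39 downstream peak, TRPS1-WT summit, chr17:39110254-39110454: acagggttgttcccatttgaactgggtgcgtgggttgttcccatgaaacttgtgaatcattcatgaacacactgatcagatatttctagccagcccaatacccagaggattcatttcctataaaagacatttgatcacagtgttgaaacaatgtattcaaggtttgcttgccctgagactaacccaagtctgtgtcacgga
KRT72 and KRT74 peak, TRPS1-MT summit, chr12:52974203-52974403: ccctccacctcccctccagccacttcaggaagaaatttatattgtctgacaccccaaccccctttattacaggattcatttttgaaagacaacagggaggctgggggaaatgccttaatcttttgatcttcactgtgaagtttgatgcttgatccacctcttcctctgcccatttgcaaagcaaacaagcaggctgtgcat

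Consensus sequences were searched on both strands in the 201 bp around each summit. AP-1 matches were found in 18 of the 67 shared TRPS1-WT peaks of keratin windows (26.9%, 17.7 to 38.5%), against 19.1% of all shared TRPS1-WT peaks. They were in 3 of the 68 keratin peaks of that list alone (4.41%), against 5.86%. In TRPS1-MT the counts were 17 of 67 shared (25.4%, against 15.0%) and 6 of 110 in that list alone (5.45%, against 4.01%). Shared keratin peaks thus held AP-1 letters more often than unshared ones, as peaks did throughout the lists.

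TEAD matches were in 20 of the 67 shared TRPS1-WT peaks (29.9%, 20.2 to 41.7%), against 16.7% of all shared ones, and in 15 of 67 in TRPS1-MT (22.4%, 14.1 to 33.7%), against 15.4%. Among keratin peaks of 1 list alone they were in 10 of 68 in TRPS1-WT (14.7%, against 12.1%) and in 11 of 110 in TRPS1-MT (10%, against 11.3%). Over all keratin peaks they were in 22.2% and 14.7%, against 13.5% and 12% of the lists. GATA letters (AGATAA, and the same with T first, G last or both), the kind of sequence that GATA fingers read, were in 53 of 135 TRPS1-WT peaks (39.3%, against 38.7% of the list) and in 56 of 177 TRPS1-MT peaks (31.6%, 25.2 to 38.8%, against 38.1%). The E-box letters CAGGTA or CAGGTG were in 28.1% and 24.3%, against 24.4% and 24.2%. SP/KLF letters (GGGCGG) were in 6 and 8 peaks (4.44% and 4.52%, against 6.23% and 4.51%) and CDX letters (TTTATNG) in 12 and 20 (8.89% and 11.3%, against 11.1% and 12.1%). The ETS letters CCGGAAG were in 0 of 135, which leaves a share of up to 2.77% (Wilson), and in 3 of 177 (1.69%), against 1.13% and 0.798%. Keratin summit windows had a median GC content of 48.8% and 49.3%, against 43.8% and 43.3% of the lists.

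Genes of related function are given beside the 67.4% and 76.4% of all genes that had a promoter peak in TRPS1-WT and TRPS1-MT. Of 15 other intermediate filament genes, 11 (73.3%) had one in each list, near the share of all genes, and 9 in both, with LMNA, a nuclear lamin, the strongest at 312 and 679 tags and VIM, the mesenchymal filament vimentin, at 78 and 93 tags. Of 12 genes whose proteins anchor keratin filaments at desmosomes and hemidesmosomes, 10 (83.3%) and 11 (91.7%) had one and 9 had one in both. JUP, encoding plakoglobin, was the strongest at 441 and 453 tags. The KRTAP genes, whose products fill the hair shaft between the filaments and which lie on several chromosomes, had promoter peaks at 15 (16%) and 21 (22.3%) of 94, below the shares of all genes, and 66 had none in either list. KRTAP2-3 stood out among them with 606 and 1082 tags.

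The annotation also holds 151 keratin pseudogenes, of which 13 (8.61%) were overlapped along their length by a TRPS1-WT peak, 26 (17.2%) by a TRPS1-MT peak and 10 by peaks of both. Of all 15399 annotated pseudogenes the shares were 6.81% and 12.1%, with a median length of 681 bp against 1299 bp for the keratin pseudogenes. Most keratin pseudogenes were copies of KRT18 (68, with 2 and 9) or KRT8 (51, with 3 and 5). How the authors handled reads that map to several places was not stated. Values over the near-identical copies KRT6A, KRT6B and KRT6C, KRT14, KRT16 and KRT17, KRT33A and KRT33B, or KRT81, KRT83 and KRT86 are uncertain for this reason, and the absence of a listed peak at them also.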

How the data were processed

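Flag CUT&Tag was measured in 1 library of TRPS1-WT and 1 of TRPS1-MT HCT116 cells, grouped by the genotype labels. The authors mapped the reads with Bowtie 0.12.8, called peaks with MACS in each library and annotated them with HOMER. No source used here names a control library or the handling of multi-mapping reads. Each deposited list gives per peak a fold (a ratio to the local background), −log10 p, −log10 q, a score and the summit. The labels name 2 genome builds, the methods hg19, and no peak ended beyond a GRCh37 chromosome. Peaks outside chromosomes 1 to 22, X and Y (105 and 142) were left out. Summit tags were recovered from the fold and −log10 p under the MACS2 Poisson model to within 0.01 in −log10 p, which left 3 and 2 peaks without a value. The methods name MACS 1.4.2, while the lists have the layout and q values that MACS2 writes, so tag values rest on an assumed model. The recovery and the overlaps were tested on simulated data.

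A gene's strongest peak was that with the highest −log10 p. Overlap was at least 1 bp. Shares have Wilson intervals, tags exact Poisson intervals and ratios exact binomial ones. Computations ran in Python 3.11.15 with matplotlib 3.10.9, scipy 1.17.1, pandas 2.3.3 and numpy 2.4.6. The keratin genes, their classes, the other gene lists and the 7 consensus sequences were chosen with earlier results of these data known. Every keratin is counted, and genes are named by class; peaks named beyond this were the tallest shared, called or unshared ones. Sequences were read from GRCh37. RNA sequencing was not analysed here.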

Additional observations from a re-analysis of the deposited data

How the results depend on the processing

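Of 60 values recomputed under 11 alternatives, 47 stayed and 13 moved, where a count moved beyond 1.5 times its main value and a share or median beyond the 95% interval of its main value. With the canonical TSS alone, promoter peaks fell to 12 keratins in TRPS1-WT and 5 in both lists. With gene bodies alone there were 64 TRPS1-WT and 77 TRPS1-MT peaks, 1 higher pair and 1 lower pair, and with 5 kb on each side 3 higher pairs. At a −log10 p of at least 10, 58.1% of the TRPS1-WT peaks were shared and 3 pairs were higher. With lists of equal length, keeping the strongest peaks of each, TRPS1-MT had 115 keratin peaks, 52.2% of them shared, and 8 pairs were lower. Dividing tags by each library's background pileup turned the median ratio of the pairs from 1.41 to 0.881 and, since it rescales all pairs alike, left it at 1.06 times the median of all pairs. The direction of tags between the libraries thus depends on the scale.

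No paired analysis was possible because each condition had 1 library. Peaks were listed only above −log10 q of 4, which sets the lowest height at 9 tags in TRPS1-WT and 10 tags in TRPS1-MT, and sites below it are not in the lists. Keratin genes whose promoter peaks were all in 1 list had 10 to 29 tags there. At genes with promoter peaks in both lists, single promoter peaks without an overlap were taller. They reached 159 tags in TRPS1-WT (KRT15) and 210 tags in TRPS1-MT (KRT19).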
